A study of Mus musculus with 6 samples.

Results

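The genes described here are 10 genes of antigen presentation, namely B2m, H2-K1, H2-D1, Nlrc5, Tap1, Tap2, Psmb9, Psmb8, H2-Aa and Ciita, taken by name from 21757 protein-coding genes of the GENCODE M39 annotation of GRCm39. Their accessible regions were read from a deposited list of ATAC-seq peaks, in which open chromatin is marked by insertions of the transposase Tn5. An interval is a distinct start and end in that list, and it was given to a gene where it overlapped the stretch from 3 kb upstream of the gene start to the gene end. By this rule the 10 genes held 71 distinct intervals of 279569 in all, and these 71 intervals carried 210 of the 749750 summits in the list.

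The nuclei came from kidney cortex of 3 mice labelled WT and of 3 mice with a tubule-specific Acly knockout (Acly cKO). As controls the study's methods name littermates with Acly fl/fl and no Cre. In the knockout the floxed Acly allele was crossed with Ksp-Cre, a Cdh16-Cre that recombines broadly in tubular epithelial cells, so glomerular, vascular and immune cells keep the allele. All mice carry the treatment label Control, and neither the strain nor the age of these animals is given in the labels. By label the WT libraries are of batches 1 and 2 and the Acly cKO libraries of batches 4 and 5, and an effect of genotype cannot be told apart from one of batch. The peak list is 1 call over pooled libraries. It has no column for a single library, so WT and Acly cKO were not compared, no value below has a replicate error, and the depth of each library is unknown. Further WT libraries of the study were not analysed here, and the files do not show whether they entered the pool.

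Antigen presentation shows fragments of proteins to T cells. In the class I pathway, found in nearly all nucleated cells, peptides cut by the proteasome are pumped into the endoplasmic reticulum by the transporter TAP and loaded on a heavy chain paired with beta-2 microglobulin. In the class II pathway, typical of dendritic cells, macrophages and B cells and inducible by interferon gamma in other cells, including tubule cells, an alpha and a beta chain carry peptides from the endosome. Promoters of both pathways share a block of short elements called S, X and Y boxes. The coactivators NLRC5, for class I, and CIITA, for class II, act there through the RFX, CREB and NF-Y factors that bind the block.

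The stretch from the X2 half-site, the letters TGACG bound by the CREB family, to the Y box, the letters ATTGG bound by NF-Y, is shown for the 4 genes that held both in this order beside their highest summit. Sequences are from GRCm39, written on the strand of the gene, and capitals mark both elements.
B2m, chr2:121978090-121978119, plus strand, first exon: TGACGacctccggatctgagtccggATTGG
H2-K1, chr17:34219333-34219362, minus strand, upstream of the start: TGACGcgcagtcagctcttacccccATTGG
H2-D1, chr17:35481969-35481998, plus strand, first exon: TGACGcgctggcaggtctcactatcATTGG
H2-Aa, chr17:34506841-34506871, minus strand, upstream of the start: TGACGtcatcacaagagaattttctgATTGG
The Y box began 25 bases after the first base of the X2 half-site in B2m, H2-K1 and H2-D1, and 26 bases after it in H2-Aa. This spacing was read off these genes. The 4 genes were taken by a search of the 300 bases around the highest summit, so closeness to the summit follows from that choice. The summit was 40 bases past the first base of the X2 half-site in B2m and 7 bases past it in H2-K1. It was 21 bases before that base in H2-D1 and 1 base before it in H2-Aa. The H2-K1 and H2-D1 stretches had the same letter at 23 of 30 positions, while the B2m and H2-K1 stretches had the same letter at 13 of 30.

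Longer stretches upstream of H2-K1 and H2-Aa are shown because a kappaB element, bound by NF-kB, preceded the X2 half-site and the Y box in both; capitals mark the 3 elements, and in H2-Aa the palindrome that the X2 half-site forms with its reverse complement.
H2-K1, chr17:34219322-34219436, minus strand, 115 to 1 bases upstream: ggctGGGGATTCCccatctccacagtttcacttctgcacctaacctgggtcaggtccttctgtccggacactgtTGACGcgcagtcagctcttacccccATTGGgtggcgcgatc
H2-Aa, chr17:34506837-34506932, minus strand, 135 to 40 bases upstream: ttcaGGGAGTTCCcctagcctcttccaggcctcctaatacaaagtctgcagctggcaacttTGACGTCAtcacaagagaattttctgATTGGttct
The kappaB element of H2-K1 began 70 bases before its X2 half-site, and the same distance of 70 bases was found in H2-D1.

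Beta-2 microglobulin and the class I heavy chains had the highest levels among the 10 genes. The level of a gene near its start is the fold enrichment of its highest summit within 1 kb of the start of the canonical transcript, where fold enrichment is the signal at the summit relative to the background of the peak caller. H2-K1, the heavy chain K, reached 50.2-fold at a summit 34 bases upstream of its start, in an interval of 2966 bases (chr17:34217729-34220694). H2-D1, the heavy chain D, reached 46.0-fold at a summit 257 bases into its annotated first exon, in an interval of 4646 bases with 13 summits (chr17:35480535-35485180), the widest of the 71. B2m, the light chain of every class I molecule, reached 45.0-fold at a summit 173 bases into its annotated first exon, in an interval of 3800 bases with 9 summits (chr2:121977127-121980926). These levels exceeded those of 83.9% (H2-K1), 80.5% (H2-D1) and 79.6% (B2m) of all protein-coding genes.

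At B2m and H2-D1 the summits lay nearer to other annotated starts than to the canonical one. A shorter B2m transcript begins 29 bases downstream of the summit, and a shorter H2-D1 transcript begins 103 bases downstream of it. No summit lay within 200 bp of the canonical H2-D1 start. Outside these intervals little was found at B2m and H2-K1. The strongest intervals away from any start reached 2.82-fold in intron 3 of B2m (chr2:121981080-121982823) and 1.90-fold at 1998 bases upstream of H2-K1 (chr17:34221191-34221721). H2-D1 differed, with a 12.2-fold interval of 15 summits (chr17:35475497-35478817), whose highest summit lay 4379 bases upstream and thus outside the window that the interval entered. Each of the 3 summits also lay inside an overlapping gene, Patl2 at B2m, Gm53999 at H2-K1 and 5430410E06Rik at H2-D1, and a pooled peak carries no strand.

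**Figure D1:**
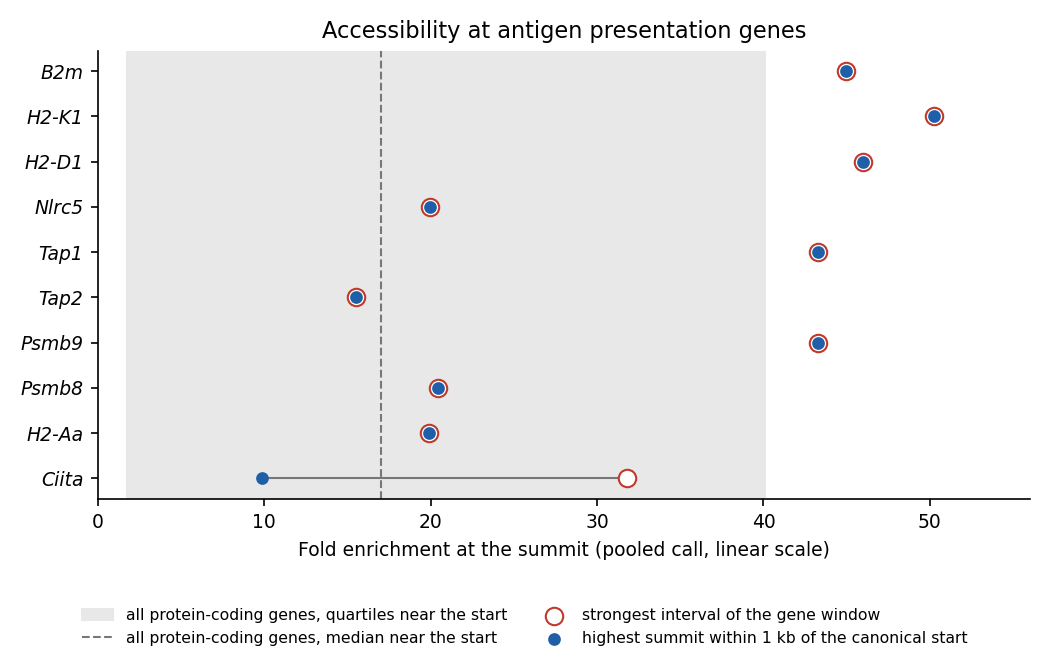
Fold enrichment on a linear scale for each of the 10 genes. Filled points give the highest summit within 1 kb of the canonical start, open circles the strongest interval of the gene window, and the grey band and dashed line the quartiles (1.77 to 40.1) and median (17.0) of 21757 protein-coding genes near the start; 5 genes sit between 43.3 and 50.2, the others lie at 20.4 or below near the start, and the points separate for Ciita alone.

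Tap1 and Psmb9 shared the next level. TAP1 is a subunit of the peptide transporter, and PSMB9 is a catalytic subunit of the immunoproteasome, the form of the proteasome induced by interferon gamma. The genes are divergent and overlap at their annotated first exons, and a single interval of 2220 bases (chr17:34405387-34407606) covered both starts. It held 1 summit, at 43.3-fold, 36 bases downstream of the canonical Tap1 start. That summit lay 327 bases inside the canonical Psmb9 transcript and 58 bases upstream of a shorter Psmb9 transcript, so the list gives no separate level for the 2 genes. Tap1 held 7 intervals in a window of 13.2 kb and Psmb9 held 3 in 8.78 kb. Beyond the shared interval all those of Psmb9 stayed at or below 3.14-fold, and those of Tap1 did too except the interval at its 3′ end that belongs to the Psmb8 start.

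Psmb8 and Tap2, their neighbours in the same cluster, had lower summits. PSMB8 is the other catalytic immunoproteasome subunit of the cluster, and its start reached 20.4-fold at a summit 26 bases upstream, in an interval of 3400 bases with 9 summits (chr17:34415234-34418633). TAP2, the partner of TAP1 in the transporter, reached 15.5-fold in an interval of 4375 bases with 11 summits (chr17:34421619-34425993). The Tap2 summit lay 980 bases into its annotated first exon and 60 bases upstream of a shorter Tap2 transcript. That summit also lay inside an overlapping gene, Gm20496. Within 200 bp of the canonical Tap2 start the highest summit reached 6.02-fold. The strongest intervals away from starts were small in both genes, at 2.42-fold in intron 5 of Psmb8 (chr17:34419810-34420083) and 3.14-fold in intron 9 of Tap2 (chr17:34433192-34433711). Across the 4 genes the summits at the starts therefore fell from 43.3-fold, shared by Psmb9 and Tap1, to 20.4-fold at Psmb8 and 15.5-fold at Tap2.

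**Figure D2:**
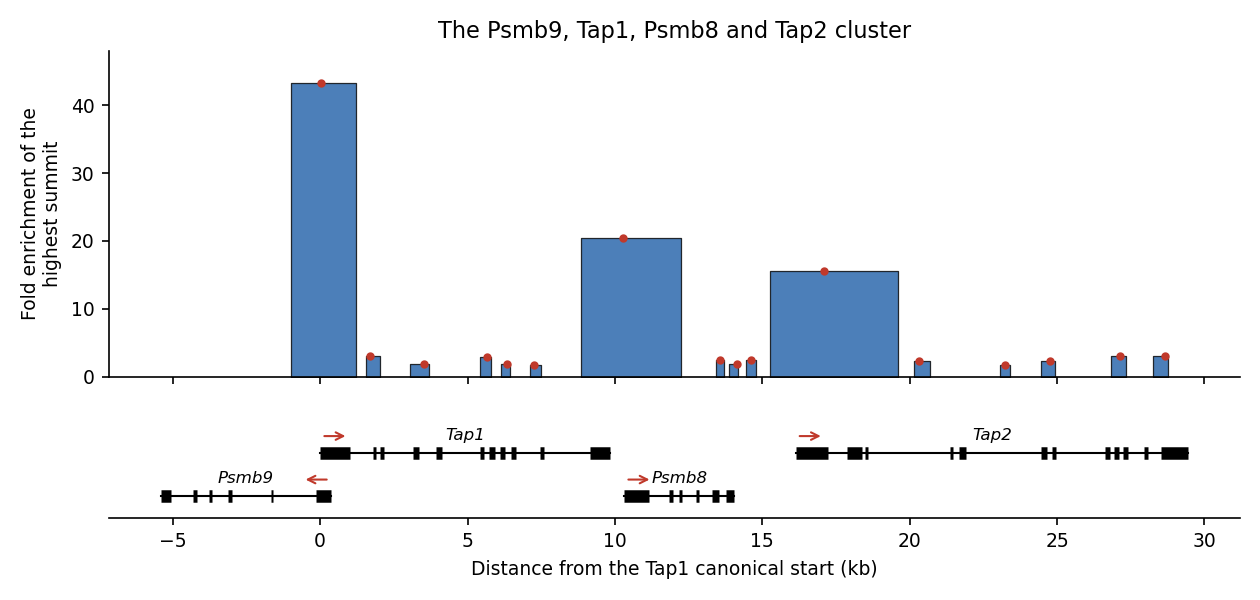
The cluster of Psmb9, Tap1, Psmb8 and Tap2 by distance in kb from the canonical Tap1 start. Bars give each interval with the fold enrichment of its highest summit (linear axis, red points at the summits), and the lower track shows exons of canonical transcripts with arrows at their starts; the 3 tall bars, at 43.3, 20.4 and 15.5-fold, lie at starts, and each of the others stays at or below 3.14-fold.

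The sequences at these summits are shown for Psmb8, whose upstream stretch held the palindrome of the X2 half-site, and for Tap2 and B2m, which held an interferon-stimulated response element (ISRE) beside the summit; capitals mark these elements. The ISRE, bound by interferon regulatory factors, was searched as GAAA, any pair of bases and GAAA.
Psmb8, chr17:34416610-34416689, plus strand, 80 to 1 bases upstream: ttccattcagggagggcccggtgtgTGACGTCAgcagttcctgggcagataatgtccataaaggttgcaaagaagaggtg
Tap2, chr17:34423465-34423494, plus strand, first exon: gcagtgaagtGAAAGCGAAAgccgcgggac
B2m, chr2:121978019-121978048, plus strand, first exon: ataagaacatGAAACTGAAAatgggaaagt
The Tap2 element began 6 bases before the summit and that of B2m 101 bases before it. The Psmb8 summit lay 29 bases after the first base of its palindrome.

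Nlrc5, the coactivator of class I genes, and Ciita, the coactivator of class II genes, held the most intervals of the 10 genes, in the longest windows. Per 10 kb Nlrc5 had the fewest intervals of the 10 genes, 1.46, while Ciita had 4.55. Nlrc5 reached 19.97-fold at a summit 52 bases upstream of its canonical start (chr8:95159550-95161480). That summit also lay inside an overlapping gene, 9330175E14Rik. Nlrc5 held 14 intervals over 95.9 kb. Of these 14, 6 reached 5-fold or more. The other 5 stood at 10.9-fold and 8.97-fold in introns 1 and 2, at 6.87-fold in intron 15, at 12.8-fold in intron 23 (chr8:95218489-95220940, 58.2 kb downstream) and at 5.63-fold in intron 40. No summit lay within 200 bp of the annotated internal Nlrc5 starts 35619, 38372 and 47648 bases downstream of the canonical one.

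Ciita was the gene whose strongest interval was not at a start. Its canonical start had a summit of 9.89-fold at 157 bases into the first exon, the lowest start level of the 10 genes and above 42.7% of all protein-coding genes. In intron 1, an interval of 2654 bases with 8 summits (chr16:10312258-10314911) reached 31.8-fold at 6415 bases from the canonical start, 3.22 times the level at that start. A second interval in the same intron reached 14.9-fold at 8683 bases. Ciita held 24 intervals over 52.8 kb, more than 91.0% of all genes, and 7 of them reached 5-fold. Ciita is known for alternative promoters that different cell types use. In the annotation further starts lay 9593, 9501, 9488, 1474 and 1373 bases upstream of the canonical one. No summit lay within 200 bp of any of them. The interval at the canonical start (chr16:10306208-10308882) did begin within 200 bp of the starts 1474 and 1373 bases upstream. The span of Dexi held the highest summit of every Ciita interval from 11.2 kb past the canonical start, still in intron 1, to the gene end. Those intervals cannot be given to Ciita alone. They include the intervals at 5.70, 7.27, 7.53 and 5.11-fold, which are among the 7 that reached 5-fold.

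Sequences are shown for the Nlrc5 start, which held an ISRE, for the Ciita start, which held a GAS element (TTCNNNGAA, bound by STAT factors), and for the middle of the Ciita intron 1 interval, which held a Y box; capitals mark these elements.
Nlrc5, chr8:95161011-95161040, plus strand, across the canonical start: cagtggccacTTTCAGTTTCcacagagcgc
Ciita, chr16:10307436-10307515, plus strand, 80 to 1 bases upstream: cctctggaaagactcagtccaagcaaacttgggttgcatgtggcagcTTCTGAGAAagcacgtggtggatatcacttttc
Ciita, chr16:10313871-10313991, plus strand, intron 1: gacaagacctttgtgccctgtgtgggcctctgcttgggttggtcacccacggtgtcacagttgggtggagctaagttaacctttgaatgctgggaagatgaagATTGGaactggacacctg
The Nlrc5 element is written as its reverse complement and began 2 bases after the first base of the canonical transcript. The GAS element of Ciita lay 33 to 25 bases upstream of the start.

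H2-Aa, the alpha chain of the class II molecule I-A, reached 19.9-fold at a summit 75 bases upstream of its start (chr17:34506090-34507397), close to Nlrc5 and Psmb8 in level. It held 5 intervals over 16.4 kb. The strongest away from its starts stood at 5.37-fold in intron 1 (chr17:34504526-34505195), and the interval nearest to the window on the upstream side, which was not counted, stood at 17.6-fold and 388 bases away. A transcript model of H2-Eb1 spans the H2-Aa start.

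**Figure D3:**
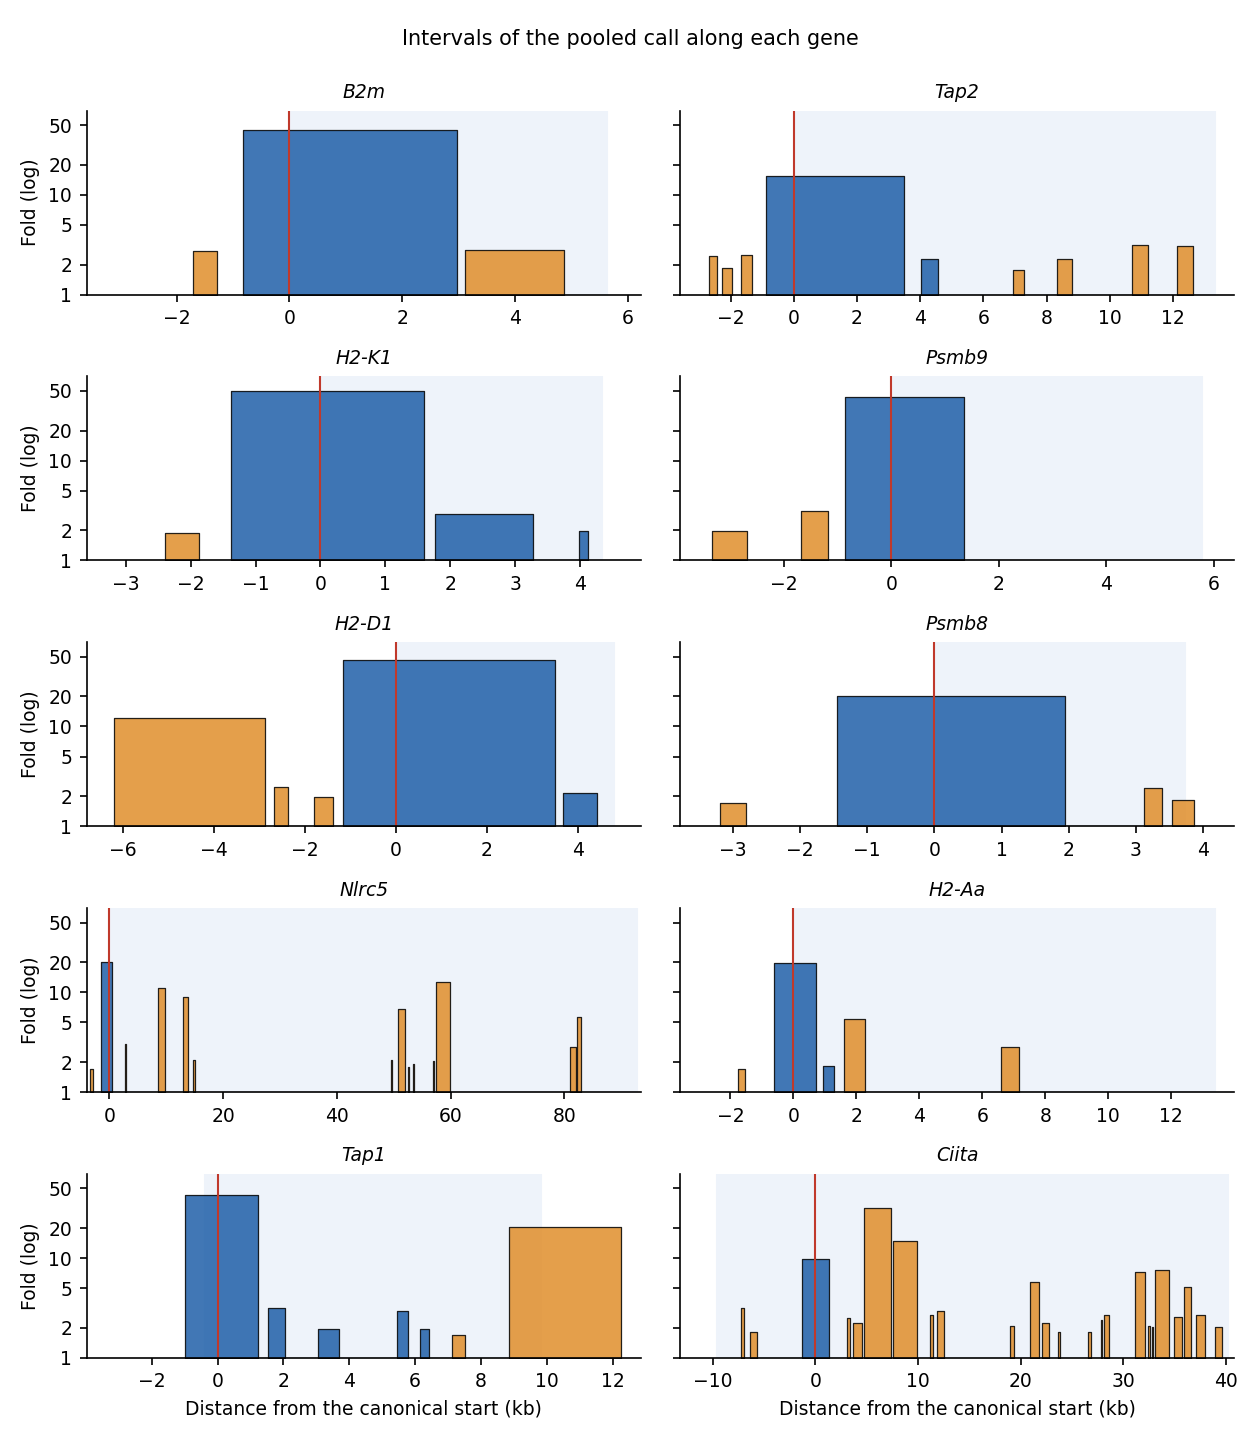
Each panel is 1 gene, with distance from its canonical start (red line) in kb and fold enrichment on a log scale. Bars are intervals at the height of their highest summit, blue within 1 kb of an annotated start of that gene and orange elsewhere, and the shaded span is the gene; most genes have 1 tall bar at the start, while Nlrc5 has 6 intervals and Ciita 7 of at least 5-fold.

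Read against all protein-coding genes, every one of the 10 genes had an interval within 1 kb of an annotated start, where 77.9% of all genes did. All 10 had a summit of at least 5-fold within 1 kb of the canonical start, against 64.3% of all genes, and 6 of 10 had one of at least 20-fold, against 47.0%. The shared Tap1 and Psmb9 interval counts for both genes in these numbers. The strongest interval exceeded the start summit in 1 of 10 genes, Ciita, against 30.6% of all genes. The median level near the start was 31.9-fold over the 10 genes and 17.0-fold over all genes. No gene of the 10 lay between 20.4-fold and 43.3-fold near the start. Intervals were also dense, with a median of 4.93 per 10 kb against 1.86 over all genes, and they covered a median of 43.9% of the gene window against 16.7%. The windows of the 10 genes were shorter, with a median of 10.99 kb against 22.2 kb, and held a median of 5 intervals against 4. Nlrc5 lay below the medians of all genes on both measures of density, with 1.46 intervals per 10 kb and 11.5% of its window covered. These are descriptions of a single pooled call, without a test.

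The levels come in steps. Every fold enrichment in the list was a whole multiple of 0.0655, within 0.01 of a step, which is the finest difference the list can show. H2-K1 stood at 767 steps, H2-D1 at 702, B2m at 687 and the Tap1 and Psmb9 interval at 661, while Psmb8, Nlrc5 and H2-Aa stood at 312, 305 and 304. Without libraries to compare, it was not testable whether neighbours in this order differ.

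Of the 71 intervals, 18 lay within 1 kb of an annotated start of a gene they belonged to, and 7 belonged to more than 1 of the 10 genes. Most were weak. A share of 62.0% (44 intervals) stayed below 3-fold, against 59.0% of the whole list, 22 intervals (31.0%) reached 5-fold, against 24.5%, and 6 intervals reached 20-fold, against 5.59% of the whole list. Of the 64 intervals that belonged to 1 gene of the 10, the highest summit fell in an intron for 33, in an exon for 17, upstream for 13 and downstream for 1. Widths ran from 143 to 4646 bases with a median of 544, while the median of the whole list was 434.

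The start levels of the remaining genes of the pathways varied between and within the lists. Among the other genes of the class I pathway, the peptide loading and trimming genes had a median start level of 49.8-fold. They ranged from 20.3-fold at Tapbpl to 75.8-fold at Calr, which encodes the chaperone calreticulin. All 6 reached 20-fold, against 47.0% of all protein-coding genes. The 16 class I-like heavy chain genes of the H2-Q, H2-T and H2-M groups had a median of 7.33-fold. They ranged from no summit at H2-Q6, H2-Q7, H2-M9 and H2-M10.1 to 42.03-fold at H2-Q4. In this list 8 of 16 reached 5-fold, against 64.3% of all protein-coding genes. Of the partners of the immunoproteasome, Psmb10, its remaining catalytic subunit, stood at 10.6-fold near the start and at 42.2-fold elsewhere in its window, and the genes Psme1 and Psme2 of the proteasome activator at 29.9-fold and 71.1-fold. The constitutive subunits that the immunoproteasome subunits replace, Psmb5, Psmb6 and Psmb7, stood at 24.2, 29 and 29.1-fold.

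For class II, H2-Ab1, which encodes the partner of the H2-Aa chain, stood at 21.02-fold, H2-Eb1 at 22.6-fold and H2-Eb2 at 3.14-fold. The 8 class II chaperones and proteases had a median of 18.5-fold, from no summit near the start at Ctss to 45.3-fold at H2-DMa. Of these 6 of 8 reached 5-fold, against 64.3% of all protein-coding genes. The factors that bind the S, X and Y block were all accessible, with a median of 62.6-fold over 7 genes, from 50.2-fold at Rfxap to 88.8-fold at Nfya. The 4 interferon genes of the list, which hold the receptor chains and the factors below them, ranged from 31.0-fold at Irf1 to 80.0-fold at Ifngr1. Both Nlrc5 and Ciita thus stood below each of the 7 factors near their starts.

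Markers of the tissue gave the scale for these levels. All 7 kidney tubule markers had an interval near a start, where 77.9% of all protein-coding genes did. So did all 4 glomerulus and vessel markers, 7 of 10 leukocyte markers and all 6 genes of liver, muscle and neurons. The median start level of the tubule markers was 9.56-fold. Levels ran from 4.19-fold at Aqp2, the water channel of the collecting duct, to 33.1-fold at Lrp2, the endocytic receptor megalin of the proximal tubule. The 4 glomerulus and vessel markers had a median of 3.83-fold (2.03 to 8.64). The 10 leukocyte markers had a median of 2.10-fold. They ranged from no summit near the start, as at Itgax, Cd3e and Cd8a, to 11.9-fold at Flt3, with 11.2-fold at Cd68 and 1.90-fold at Ptprc, the pan-leukocyte marker CD45. Genes of liver, muscle and neurons, as genes of other tissues, had a median of 2.72-fold (0 to 25.9). The class II genes H2-Aa and Ciita, at 19.9-fold and 9.89-fold near the start, were above or within the leukocyte range near starts. By the strongest interval of the gene window the leukocyte markers had a median of 9.20-fold and reached 76.4-fold, at Cd79a. On that measure H2-Aa, at 19.9-fold, and Ciita, at 31.8-fold, both lay within the leukocyte range. Among these markers only Cd79a and Cd68, at 64.2-fold, stood above Ciita. Neither reached that level within 1 kb of its canonical start. The genes of liver, muscle and neurons had a median of 23.4-fold on that measure and reached 80.3-fold. A high level on it therefore does not single out leukocyte genes. The part of leukocytes or of tubule cells in these values was not tested, and in bulk nuclei more cells of a type and a more open site per cell cannot be told apart.

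**Figure D4:**
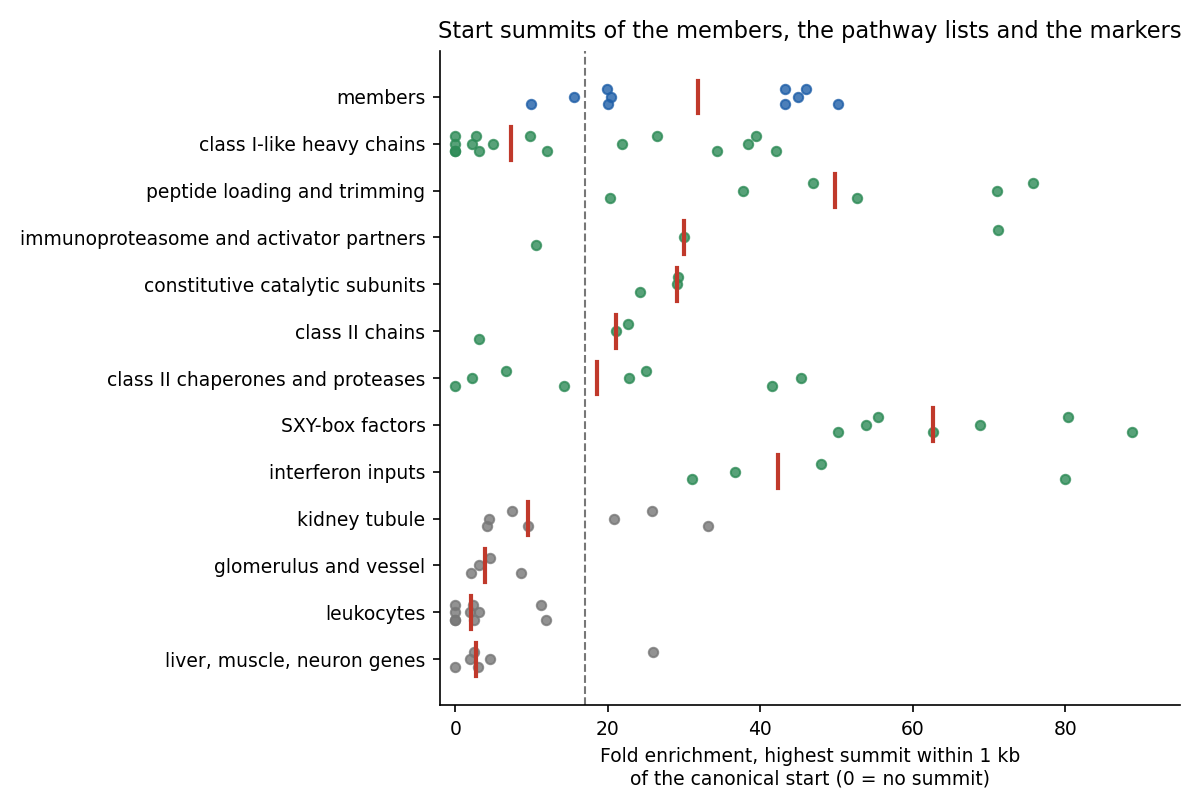
Fold enrichment of the highest summit within 1 kb of the canonical start (linear scale, 0 for no summit) for the 10 genes (blue, row named members), the pathway lists (green) and the cell type markers (grey). Each point is a gene, red bars are list medians and the dashed line is the median of all protein-coding genes (17.0); the medians run from 2.10 for leukocyte markers to 62.6 for the factors of the S, X and Y block.

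Other gene families of the same list were set beside the 10 genes. The 31 proteasome subunit genes had a median start level of 40.5-fold and the 9 interferon regulatory factor genes of 31.0-fold. All genes of both families reached 5-fold near the start, against 64.3% of all protein-coding genes. The median of the 10 antigen presentation genes, 31.9-fold, falls in the gap between 20.4-fold and 43.3-fold, where none of them lay. It also counts the shared Tap1 and Psmb9 summit for both genes, so its distance from the other medians carries little meaning.

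Short elements were counted on both strands in the 300 bases from 250 before to 50 after each canonical start, for 21717 distinct starts. The pair of AGNNAC and ATTGG, which stands for the X1 and Y boxes with the second beginning 26 to 42 bases after the first, was in none of the 10 windows and in 3.60% of all. It was in 3 of 3 of the other class II chain genes, in 3 of 8 class II chaperones and proteases (H2-DMa, H2-Oa and H2-Ob), in 1 of 16 class I-like heavy chains (H2-M2) and in 1 of 3 constitutive proteasome subunits (Psmb7), the last 5 genes being named for their matches. The class II chain stretches are shown for comparison with H2-Aa, with both elements in capitals.
H2-Ab1, chr17:34482123-34482160, plus strand, upstream: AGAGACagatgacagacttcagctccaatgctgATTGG
H2-Eb1, chr17:34524749-34524786, plus strand, upstream: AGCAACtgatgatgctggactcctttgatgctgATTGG
H2-Eb2, chr17:34544516-34544553, plus strand, upstream: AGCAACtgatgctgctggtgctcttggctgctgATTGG
All 3 spanned 38 bases, and none held the TGACG of H2-Aa. The H2-Aa stretch shown above has the letters ggcaac shortly before its X2 half-site, which differ from AGNNAC at the first letter alone. The fixed pattern did not count them, so the lack of a match does not show that H2-Aa lacks an X1 box. H2-Eb2 held the pair although its start level was 3.14-fold.

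The single elements were rare or common in the 10 windows as follows. A Y box (ATTGG) was in 3 windows (39.9% of all windows), an X2 half-site (TGACG) in 3 (22.6%), a GAS element in 3 (8.81%), a kappaB element (GGGNNTTCC, with or without a further T) in 2 (7.47%) and an ISRE in 1 (3.83%). A GC box (GGGCGG), bound by SP factors, was in 5 windows (42.5%), and a TATA box (TATAAA) in 3 (13.2%). The starts also differed in base composition. The ratio of observed to expected CpG ran from 0.0894 at Tap2 and 0.100 at Ciita to 0.756 at Psmb9 and 0.824 at Psmb8, where the median of all windows was 0.517. A match is a description of letters, not of a bound site.

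As the summits of B2m, H2-D1, Tap1, Tap2 and Psmb9 lay inside first exons, the same elements were counted in 300 bases around the highest summit of each gene, a window chosen after the matches at the starts were seen. An X2 half-site was in 7 of the 10 windows, against 12.2% of the windows around all intervals, and a Y box in 7, against 32.3%. The windows around all intervals are an unlike set. Of all intervals 59.0% stayed below 3-fold, whereas each window here lies on the strongest summit of its gene. In the windows at the starts of all genes the shares were higher, at 22.6% for the X2 half-site and 39.9% for the Y box. A kappaB element was in 4, those of B2m, H2-K1, H2-D1 and H2-Aa, against 6.41%, and an ISRE in 3, those of B2m, Nlrc5 and Tap2, against 3.18%. For the other elements the count of genes did not rise above that in the windows at the starts. A GAS element was in 1 window, that of Psmb8, against 9.06%, where 3 of the windows at the starts held one. The GAS elements at the H2-D1 and Ciita starts lay outside the summit windows. A GC box was in 3, those of Tap1, Psmb9 and Psmb8, where 5 of the windows at the starts held one. A TATA box was in 3 in both sets, against 11.8% around all intervals and 13.2% at the starts. The pair of AGNNAC and ATTGG was in none, against 2.83% around all intervals. Tap1 and Psmb9 share their window, so they count as 2 for a single stretch. The spacing of 25 or 26 bases between the X2 half-site and the Y box, which was read off the members themselves, was in 4 of 10 genes and in 82 of 279563 summit windows (0.0293%). In the windows at the starts of all genes it was in 34 of 21717 (0.157%). It was searched around the summits of the 45 of 50 other pathway genes that had one near the start, and of these it was found at H2-M3 alone.

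**Figure D5:**
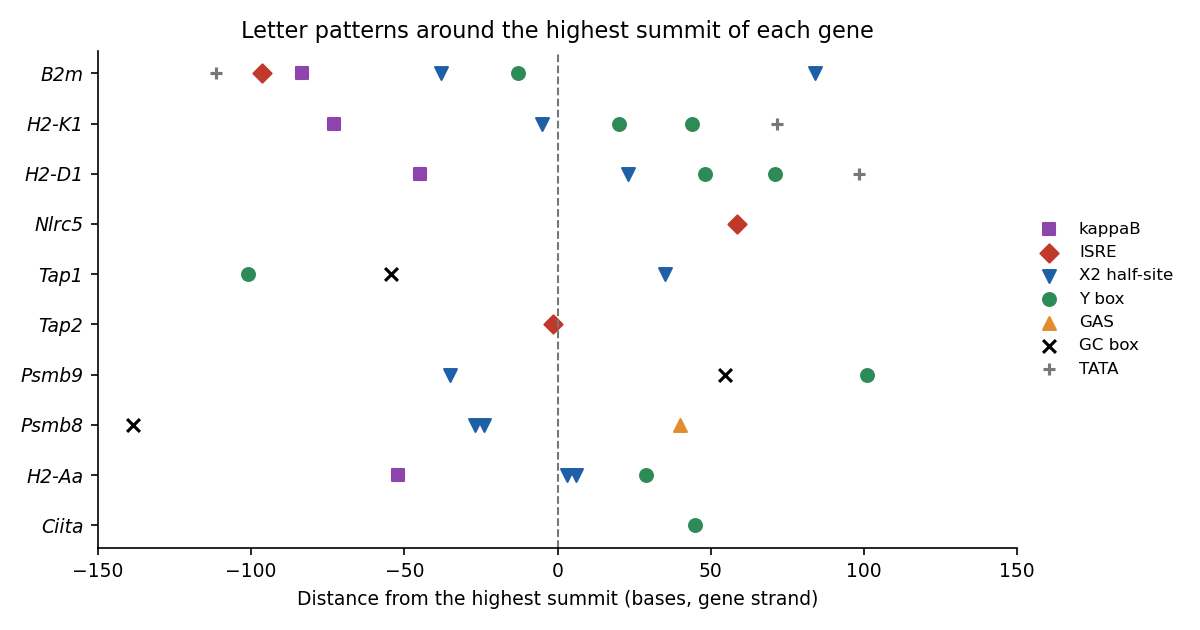
Positions of the searched elements, in bases from the highest summit on the gene strand, for the 300 bases around that summit in each of the 10 genes. Symbols mark the middle of each match; in H2-K1, H2-D1 and H2-Aa a kappaB element, an X2 half-site and a Y box follow each other in that order, and B2m has the same order with an ISRE before it.

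Near-identical gene copies could hide or split reads in this part of the genome, as reads of 50 bases were kept only where they mapped uniquely. Of the 50-base words that start within 200 bp of the highest summit, 0% occurred more than once in GRCm39 in each of the 10 genes. Within 1 kb of the canonical start the share of repeated words ran from 0% to 12.5%, the highest at H2-K1, although H2-K1 and H2-D1 were identical at 84.6% of aligned positions in the 300 bases around the X2 half-site. H2-Q6 and H2-Q7, which had no interval, had 97.3% and 97.8% of repeated words there, so their lack of intervals cannot be read as closed chromatin. H2-M9 and H2-M10.1, which also had no interval, had 3.15% and 1.05% of repeated words there. Whether repeated words account for missing intervals was not tested.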

How the data were processed

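The coordinates are those of mm39 (GRCm39), on which the authors placed fastp-trimmed reads with Bowtie2 2.3.4.3. Repeat copies of a read and reads with several placements were not kept. The intervals are a single MACS3 3.0.0 call on pooled libraries, at a fixed fragment length and above a q-value threshold, and problem regions and unplaced sequence had been filtered from the deposited list (bedtools 2.29.1). In the deposited list the fold enrichment of a summit is the authors' ratio of its signal to the background, on a linear scale. Each deposited row also holds the -log10 q-value that the caller gave the summit and the summit's offset within its interval. The deposited summit list before filtering holds the same -log10 values, and 0 summits of the 10 genes were lost to that filter. Depth per library is unknown and nothing was tested.

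Rows were joined to distinct intervals, each described by the summit with the highest -log10 q. Windows ran from 3 kb upstream to the gene end (GENCODE M39), levels near a start used 1 kb around the canonical start, and coordinates count from 1. Named are the 10 genes, each with its strongest interval and its strongest outside 1 kb of any start; of 8 lists with 50 pathway genes, only the highest, the lowest, genes without a start summit and lists of 3 or fewer are named. The same holds for 27 markers, of which some were named for their role after their values were seen and 1 is not reported here by name. The 10 genes and all lists were chosen with earlier results of these data known. Repeated 50-base words were counted on both strands of GRCm39, and an exact global alignment (edlib 1.3.9.post1) gave identities. Overlap, pattern and word searches were tested on simulated data with planted answers. Alternatives changed the threshold, the window, the summit rule and the motif window. Python 3.11.15, numpy 2.4.6, pandas 2.3.3, pysam 0.24.0 and numba 0.67.0 were used.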

Additional observations from a re-analysis of the deposited data

How the results depend on the processing

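No paired analysis was possible because the only list is a pooled call without a column for any library, and for the same reason no library could be left out. The 71 intervals of the 10 genes became 43 at a q-value under 1e-05, 22 at a fold enrichment of at least 5, 112 with 10 kb on either side of the gene, and 210 where summits were counted; the other 4 alternatives gave 61 to 71. The median strongest level of the 10 genes was 37.6-fold in 7 of the 8 settings run, the main one included, and 43.3-fold with 10 kb on either side. The q-value and fold settings could not change it, as the lowest of the strongest intervals, at Tap2, had 15.5-fold and a -log10 q of 192. An interval near a start was found for 10 of 10 genes in all 6 settings. Here too the q-value and fold settings could not change the count, as the lowest start level, at Ciita, was 9.89-fold with a -log10 q of 94.6. Counts of genes with a motif moved by over 1.5 times for 4 of 8 motifs in a window of 500 before to 100 after the start, for 2 of 7 on one strand only, and for 6 of 8 around the highest summit; the last setting was added after the data were seen. Weak intervals depend on depth, so the 44 below 3-fold are the least certain.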

Other observations

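H2-M3, a class I-like heavy chain gene that presents formylated peptides, was the one gene, of the 45 of 50 in the pathway lists with a summit near the start, that held the X2 half-site and the Y box at a spacing of 25 bases, and it is named here because of that match. Its level near the start was 38.4-fold, the stretch is on GRCm39, and capitals mark both elements.
H2-M3, chr17:37581079-37581108, plus strand, across the canonical start: TGACGcttctccaattcccattctaATTGG

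Some intervals missed a gene's window by a short distance. The 20.4-fold interval of the Psmb8 start ended 868 bases before the Tap2 window, a 3.86-fold interval lay 42 bases before that of H2-K1, and a 9.69-fold interval lay 3693 bases before that of H2-D1.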
